A study of Homo sapiens with 6 samples.

Results

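Prostate luminal cells depend on androgen signalling, which acts on chromatin that the pioneer factor FOXA1 has opened and switches on a set of secretory and metabolic genes. The kallikrein proteases KLK2 and KLK3 (prostate-specific antigen), the membrane protease TMPRSS2, the HSP90 co-chaperone FKBP5, the prostein gene SLC45A3 and the androgen-induced membrane protein PMEPA1 are textbook genes of that set. ERG is an ETS family transcription factor of endothelium and blood that prostate tumours can bring under androgen control by a fusion to the TMPRSS2 promoter, and NCI-H660 is known as a line that carries this fusion. Neuroendocrine prostate cancer (NEPC) is known for growth without androgen signalling.

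These 8 genes were selected by symbol among the 28008 gene symbols of an RNA-seq count table, and all 8 were also in the matching TPM table (counts per gene length, scaled to a common total). The libraries were made from H660 (NCI-H660), an established NEPC cell line, carrying an shRNA against MUC1 in the tetracycline-inducible pLKO-tet-puro vector after selection in puromycin. The DOX-negative group (n = 3) received 0.1% DMSO as vehicle and the DOX-positive group (n = 3) received doxycycline (DOX) at 500 ng/ml, which induces the shRNA. All 6 libraries carried the vector, the labels do not give the time on DOX, which the study states as a week, and no group with a control shRNA and DOX was analysed here, so an effect of DOX itself and of silencing cannot be told apart. The labels name RPMI with serum as the medium, while the methods of the study list β-estradiol and hydrocortisone as additions for H660, and which was used for these libraries is not known. Replicates were described as triplicate cultures, so p-values measure only the spread between these cultures.

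The libraries held 47620696 to 74061121 counts. MUC1, the target of the shRNA, was at 88.2, 90.2 and 79.6 CPM (counts relative to a library total corrected with TMM factors) in DOX-negative replicates 1 to 3 and at 36.7, 37.2 and 29.9 CPM in DOX-positive replicates 1 to 3. It was lower in every DOX-positive library (log2 fold change -1.32, SE 0.096, adjusted p = 0.00017, edgeR quasi-likelihood test with Benjamini-Hochberg adjustment). The neuroendocrine markers fit the label of the line, with all 8 of 8 tested and a summed level of 281 to 397 TPM without DOX and 258 to 413 TPM with DOX. The luminal keratins KRT8 and KRT18 were also abundant, at means of 283 and 259 TPM. The noncoding RNAs RN7SK and SNORD3A held 45.7% to 55.7% of all TPM in a library, and protein-coding genes 13.2% to 19.6%, which moves every TPM value of a library together; levels between genes are therefore compared in TPM within libraries, and differences between groups in CPM.

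The 8 genes spanned a wide range of abundance. FOXA1 was highly expressed, with a mean of 31.6 TPM over 6 libraries, above 95.2% of 18216 protein-coding genes. FKBP5 followed at 4.35 TPM, at the 65.4th percentile. ERG, TMPRSS2 and SLC45A3 were low, at 0.649, 0.44 and 0.334 TPM, between the 35.6th and the 39.6th percentile. PMEPA1 and KLK2 were at 0.0058 and 0.00056 TPM, and KLK3 was at 0 in every library. The ranges of FOXA1 and FKBP5 over the libraries did not overlap and their means differed 7.27-fold, and FKBP5 stood 6.71-fold above ERG, also with no overlap. ERG was above TMPRSS2 in 6 of 6 libraries although the ranges overlapped (0.527 to 0.777 against 0.351 to 0.546 TPM), and TMPRSS2 was above SLC45A3 in 5 of 6. SLC45A3 stood 57.6-fold above PMEPA1.

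**Figure D1:**
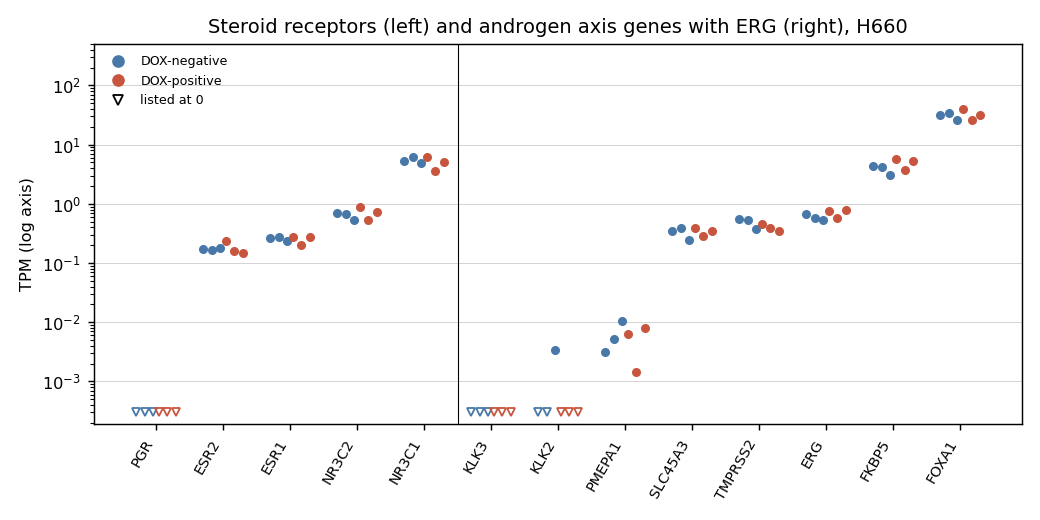
TPM (log axis) of the steroid receptors and of the 8 genes, 1 point per library, with triangles for libraries listed at 0. FOXA1 lies near 31.6 TPM, FKBP5 and NR3C1 near 4.35 and 5.19 TPM, while KLK2, KLK3 and PGR lie at or next to 0 in both groups.

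The androgen-regulated kallikreins were not expressed at a level these libraries could measure. KLK3 had 0 counts in all 6 libraries, which allows up to 0.00795 CPM over the libraries together (3 counts, counting error only). KLK2 had 1 count, in DOX-negative replicate 3, and 0 in the other 5 libraries. Both genes lie on chromosome 19 of GRCh38, KLK3 at 50854915 to 50860764 and KLK2 at 50873439 to 50880567, each on the forward strand. The 250 bases before each start site are shown because they hold the androgen response element for which the pair is known, taken from RefSeq (GRCh38.p14, forward strand, 5′ to 3′), with the match to the paired half-site pattern GAACANNNNGTNCT in capitals:
KLK3 chr19:50854665-50854914: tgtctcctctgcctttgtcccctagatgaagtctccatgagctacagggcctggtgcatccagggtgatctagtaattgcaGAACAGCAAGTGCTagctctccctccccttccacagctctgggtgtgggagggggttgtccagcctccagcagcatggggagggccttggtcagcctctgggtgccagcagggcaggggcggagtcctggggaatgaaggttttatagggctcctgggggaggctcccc
KLK2 chr19:50873189-50873438: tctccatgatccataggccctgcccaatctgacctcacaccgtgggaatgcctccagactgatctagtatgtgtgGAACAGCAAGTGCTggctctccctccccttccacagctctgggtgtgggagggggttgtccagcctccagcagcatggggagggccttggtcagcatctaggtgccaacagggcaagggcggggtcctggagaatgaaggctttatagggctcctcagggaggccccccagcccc
The match was the same 14 letters in both, GAACAGCAAGTGCT, at -169 to -156 from the KLK3 start and at -175 to -162 from the KLK2 start. The pattern, searched on both strands, was in 76 of 35116 windows of this length before annotated starts (0.216%), and in 2 of the 14 windows that the table gives for 7 of the 8 genes, both shown here. The single half-site AGAACA, which overlaps that pattern in part, was in 12.4% of all windows, among these genes in a window of KLK3 and a window of PMEPA1, and the palindrome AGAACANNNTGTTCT was in 1 window and in none of these genes. The paired pattern is a relaxed form of that palindrome, and the element of KLK3 and KLK2 was known before the search. The windows of KLK3 and KLK2 were identical at 205 of 259 aligned positions (79.2%), so their matches are not independent. For both reasons the 2 of 14 windows beside 0.216% describe the pair and do not test enrichment. A match describes letters and shows no binding.

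PMEPA1, which dampens TGF-beta signalling at the receptor and answers to both androgen and TGF-beta, had 2, 3 and 6 counts without DOX and 4, 1 and 6 counts with DOX. The libraries of both groups held values of the same size, and the gene was too low to test. The lncRNA NKILA, which overlaps it in the annotation, averaged 0.5 counts.

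The progesterone, glucocorticoid and mineralocorticoid receptors bind the same kind of element, and the levels of these and the estrogen receptors were read beside the kallikreins. The progesterone receptor PGR had 0 counts in all 6 libraries, which allows up to 0.00795 CPM over the libraries together. The glucocorticoid receptor NR3C1 was the most abundant of the steroid receptors described here, at a mean of 5.19 TPM, followed by the mineralocorticoid receptor NR3C2 at 0.675 TPM and the estrogen receptors ESR1 and ESR2 at 0.255 and 0.177 TPM. NR3C1 was at 89.0, 98.3 and 103 CPM without DOX and at 89.9, 77.1 and 90.0 CPM with DOX. Its groups overlapped and the difference did not pass the test (log2 fold change -0.17, SE 0.086, adjusted p = 0.28, edgeR). NR3C2, ESR1 and ESR2 had log2 fold changes of 0.14, -0.08 and 0.0073 with adjusted p values of 0.49, 0.75 and 0.99. Of a list of 20 steroid receptors and their partners (pioneer factors, coactivators, corepressors and HSP90 chaperones), 18 were tested and 0 were called in the edgeR test at an adjusted p under 0.05, where 4.87% of all 17026 tested genes were called, and their median log2 fold change was 0.0036 beside 0.00034 over all genes. The HSP90 genes that hold steroid receptors ready for ligand were the highest of the list, HSP90AB1 at 318 TPM and HSP90AA1 at 312 TPM. At an unadjusted p under 0.05, 3 of the 18 passed (GATA2, NCOA3 and FKBP4), beside 21.1% of all tested genes. DESeq2 called 1 (GATA2), beside 1355 of 22557 genes in all, and limma-voom 0, beside 737 of 17026. Leaving out DOX-positive replicate 1 gave 2 calls in the list, GATA2 (higher) and FOXA2 (lower), beside 1035 of 17191 tested genes. These pioneer factors, the coactivator NCOA3 and the co-chaperone FKBP4 were named after their values were seen.

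Of the 8 genes, 5 passed the filter on low counts and were tested, and 0 of the 5 were called, beside 4.87% of all tested genes. The log2 fold change was above 0 for 4 of the 5, as it was for 50.1% of all tested genes, and the median of the 5 was 0.063. At an unadjusted p under 0.05, 1 of the 5 passed (FKBP5), beside 21.1% of all tested genes. DESeq2 called 1 of 7 (FKBP5), beside 1355 of 22557 genes in all, and limma-voom 0 of 5, beside 737 of 17026. The DOX-positive and DOX-negative libraries did not overlap for 2 of the 5, FKBP5 and FOXA1, both higher with DOX; over all tested genes 14.8% did so in that direction and 28.1% in either. With 3 cultures against 3, an exact two-sided permutation test cannot go below p = 0.1, the value FKBP5 and FOXA1 gave.

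**Figure D2:**
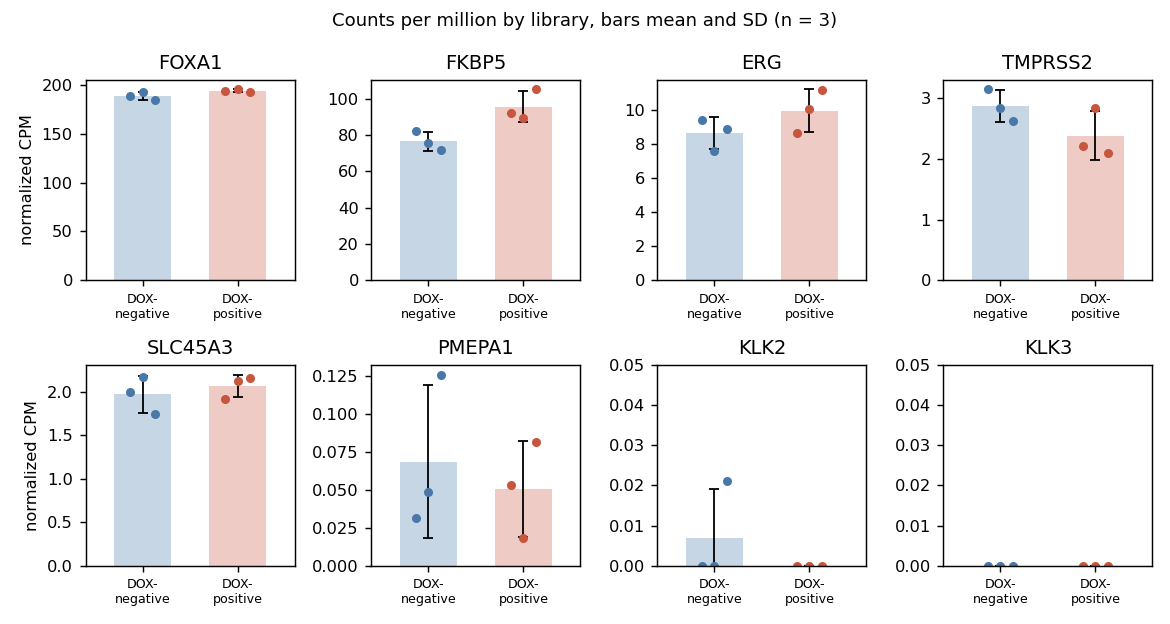
Normalized CPM of each of the 8 genes by library (points), with the mean (bar) and SD (n = 3); each panel has its own linear axis from 0. FKBP5 is the gene with a visible gap between groups, 71.6 to 82.1 CPM without DOX and 89.1 to 105 CPM with DOX, while KLK2 and KLK3 stay at or next to 0.

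FOXA1, the pioneer factor that opens chromatin for steroid receptors and that luminal and neuroendocrine prostate cells share, was at 188, 192 and 184 CPM in the DOX-negative cultures and at 194, 195 and 193 CPM in the DOX-positive cultures. Every DOX-positive library lay just above every DOX-negative one. The means of 188 ± 3.91 and 194 ± 1.19 CPM (SD, n = 3) differed by a log2 fold change of 0.04 (SE 0.066, 95% interval -0.085 to 0.17, adjusted p = 0.76, edgeR). FOXA1 lies on chromosome 14 (37589552 to 37595249, GRCh38) and no counted gene overlaps it.

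FKBP5, which binds HSP90 in steroid receptor complexes and is induced by androgens, glucocorticoids and progestins, was at 82.1, 75.6 and 71.6 CPM without DOX and at 92.3, 89.1 and 105 CPM with DOX. All 3 DOX-positive libraries were above all 3 DOX-negative ones. The means were 76.5 ± 5.30 and 95.5 ± 8.46 CPM (SD, n = 3), a 1.25-fold difference (log2 fold change 0.32, SE 0.085, 95% interval 0.15 to 0.49) that missed the threshold in the edgeR test (adjusted p = 0.053). The fold change was above 0 under 17 of 17 processing alternatives, at 0.25 to 0.38 on the log2 scale, and the gene was called under 5 of them: with upper-quartile factors (adjusted p = 0.046), with every gene of at least 1 count tested (0.031), with DESeq2 (0.02), with a replicate block (0.037) and without DOX-positive replicate 2 (0.03). Without DOX-negative replicate 3 the adjusted p was 0.24. FKBP5 spans 35573590 to 35728583 on chromosome 6 and overlaps LOC285847 and MIR5690, which averaged 1.67 and 6.17 counts against 3411 to 7751 counts of FKBP5.

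**Figure D3:**
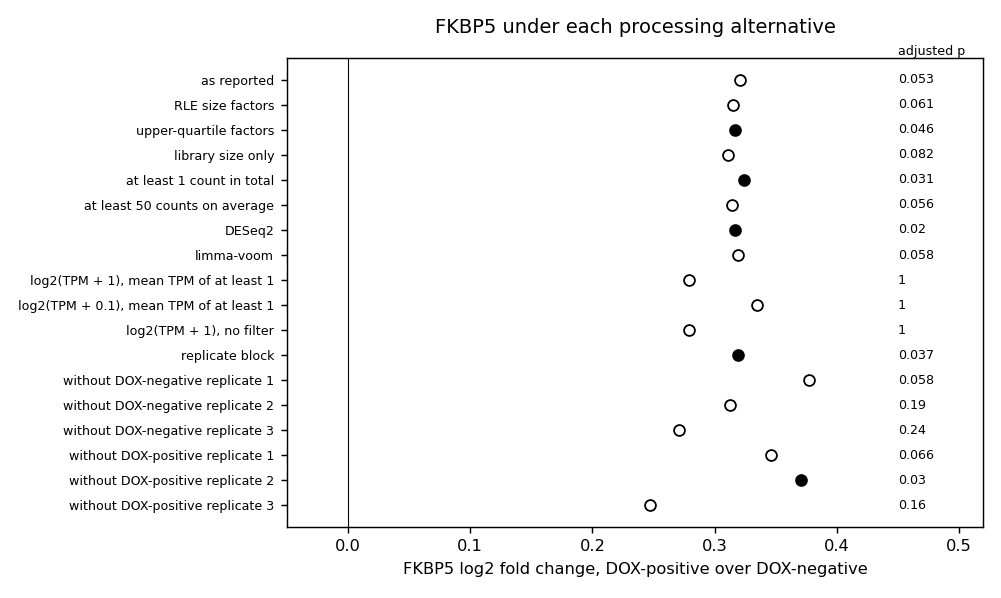
The log2 fold change of FKBP5 (DOX-positive over DOX-negative) as reported and under each of the 17 alternatives, with the adjusted p at the right; filled points passed an adjusted p of 0.05. All points lie above 0, between 0.25 and 0.38, and 5 of the alternatives are filled.

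ERG was at 9.42, 7.60 and 8.88 CPM in the DOX-negative cultures and at 8.65, 10.1 and 11.2 CPM in the DOX-positive cultures. The groups overlapped, with DOX-positive replicate 1 inside the DOX-negative range. Their means of 8.63 ± 0.937 and 9.97 ± 1.26 CPM (SD, n = 3) gave a log2 fold change of 0.21 (SE 0.12, 95% interval -0.031 to 0.45, adjusted p = 0.36, edgeR). TMPRSS2, a serine protease whose androgen-responsive promoter heads the known fusion, was at 3.15, 2.85 and 2.63 CPM (125 to 201 counts) without DOX and at 2.21, 2.84 and 2.10 CPM with DOX. DOX-positive replicate 2 lay within the DOX-negative range while the other DOX-positive libraries lay below it. The log2 fold change was -0.28 (SE 0.15, 95% interval -0.58 to 0.021, adjusted p = 0.32). The fold change of ERG was above 0 and that of TMPRSS2 below 0 in 15 of 15 alternatives each, and neither gene was called in any. Counts per gene symbol do not separate fusion transcripts from others, so the fusion was not measured here.

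SLC45A3, a prostate sugar transporter family member that is another known fusion partner of ERG, was at 2.00, 2.17 and 1.74 CPM without DOX and at 1.92, 2.13 and 2.16 CPM with DOX. The groups overlapped. The log2 fold change was 0.06 (SE 0.15, 95% interval -0.23 to 0.36, adjusted p = 0.86, edgeR), and without DOX-negative replicate 3 it was -0.018.

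Other genes of the kallikrein cluster were expressed, and 2 of them fell with DOX. Of the 13 other kallikreins in the chromosome 19 cluster, KLK11, KLK12 and KLK14 were abundant, at means of 43.0, 21.8 and 4.48 TPM. KLK5, KLK7 and KLK8 had 0 counts in every library, and 7 of the 13, among them the androgen-regulated KLK4 and KLK15, had at most 3 counts in all libraries together. KLK11, KLK12 and KLK14 lie at the far end of the cluster from KLK2 and KLK3. KLK1, at the end near KLK3, was low but counted in every library (5 to 21 counts, mean 0.177 TPM). KLK12 was at 43.0, 53.8 and 49.8 CPM without DOX and at 27.5, 27.3 and 17.01 CPM with DOX. Every DOX-positive library was below every DOX-negative one, and KLK12 fell (log2 fold change -1.03, SE 0.17, adjusted p = 0.013, edgeR). KLK14 was at 8.12, 10.8 and 8.82 CPM without DOX and at 6.09, 6.22 and 3.45 CPM with DOX, without overlap, and fell likewise (-0.82, SE 0.20, adjusted p = 0.042). KLK11 had means of 122 ± 9.31 and 97.2 ± 12.0 CPM (SD, n = 3, without and with DOX), a log2 fold change of -0.32 that did not pass (adjusted p = 0.075). In all, 5 of the 13 were tested, 0 were called higher and 2 lower (1.96% of all tested genes were called lower), with a median log2 fold change of -0.48. With DOX-negative replicate 1 left out the count was 1 (KLK12). With DOX-positive replicate 2 left out it was also 1, but this was KLK11, with neither KLK12 nor KLK14 called. With DOX-negative replicate 2 or DOX-negative replicate 3 left out it was 0. In the order named, these fits called 633 of 17217, 828 of 17258, 127 of 17243 and 58 of 17207 tested genes. The main fit called 829 of 17026. KLK12 was called in 13 of 17 alternatives and KLK14 in 9 of 17. KLK11, KLK12 and KLK14 are near neighbours of one family, and how the counting split reads between paralogs was not stated.

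ERG and TMPRSS2 lie on chromosome 21 with 16 protein-coding genes between them in the annotation (ERG at 38367261 to 38661783 and TMPRSS2 at 41464305 to 41508158, GRCh38). Expression across this interval was uneven. PCP4, a calmodulin regulator, and HMGN1, a nucleosome-binding protein, were the highest at 48.7 and 42.2 TPM, whereas the ETS gene ETS2, next to ERG, had 0, 0 and 2 counts without DOX and 0 counts in every library with DOX. The read-through gene WRB-SH3BGR was at 0, while WRB was at 0.468 TPM. Of the 13 genes tested in the interval, 9 had a fold change above 0, 1 was called (7.69%, beside 4.87% of all tested genes) and the median log2 fold change was 0.11. The called gene was BACE2, an aspartyl protease, at 6.42, 6.03 and 4.94 CPM without DOX and 7.50, 8.29 and 9.47 CPM with DOX. Its groups did not overlap (log2 fold change 0.54, SE 0.13, adjusted p = 0.036, edgeR). The count was 2 without DOX-negative replicate 1 and 0 without DOX-negative replicate 2, DOX-negative replicate 3, DOX-positive replicate 2 or DOX-positive replicate 3. In this order, the fits called 633 of 17217, 127 of 17243, 58 of 17207, 828 of 17258 and 375 of 17249 tested genes. The main fit called 829 of 17026. Of the 10 genes flanking ERG and TMPRSS2 on the outer sides, 8 were tested and 0 were called (edgeR), also 0 at an unadjusted p under 0.05.

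**Figure D4:**
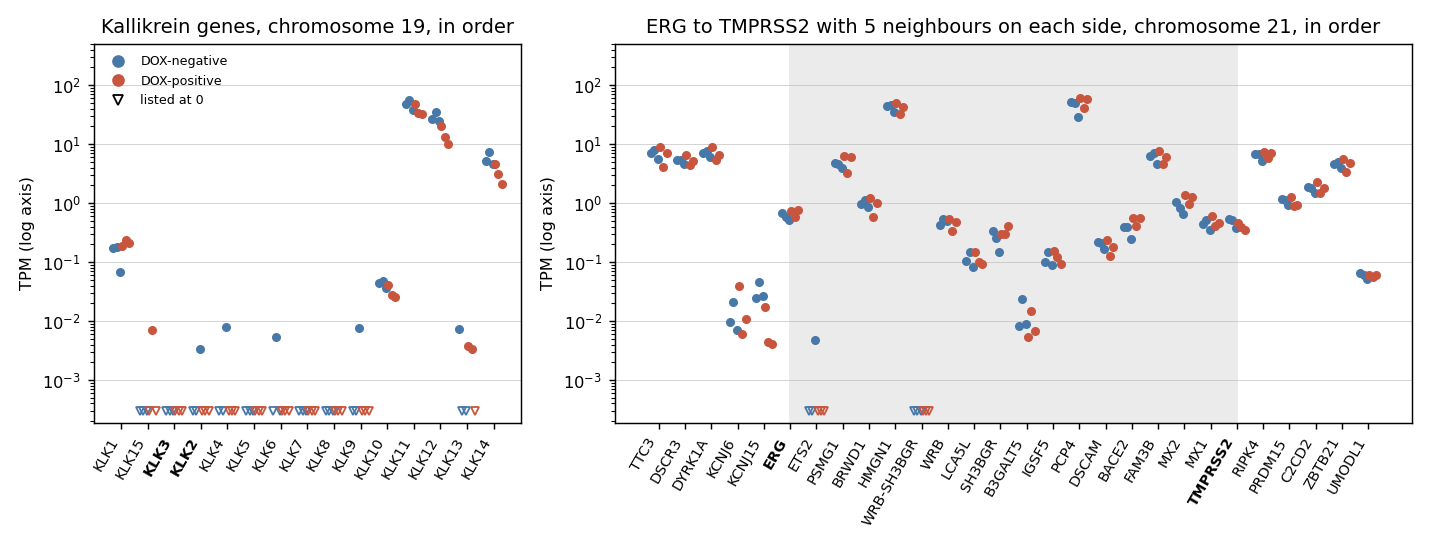
TPM (log axis) by library along the kallikrein cluster of chromosome 19 and from ERG to TMPRSS2 on chromosome 21 (shaded, with 5 neighbours on each side), genes in genomic order and not to scale, triangles at 0. KLK11, KLK12 and KLK14 stand at 43.0, 21.8 and 4.48 TPM beside KLK2 and KLK3 at or next to 0, and ETS2 lies at the bottom between ERG and PCP4.

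Androgen response genes beyond the 8 were present in part. Their list, like the other lists written by hand here, was chosen with earlier results of these data known. A share called in such a list describes it and does not test enrichment. Of a list of 49, 41 were tested, 5 were called higher and 0 lower (12.2%, beside 4.87% of all tested genes in either direction and 2.91% higher), and the median log2 fold change was 0.015. ADAMTS1, a secreted metalloprotease, was at 0.563, 0.485 and 0.651 CPM without DOX and 1.63, 1.71 and 2.06 CPM with DOX. Its groups were far apart (log2 fold change 1.68, SE 0.20, adjusted p = 0.0024, edgeR), and it was called in 15 of 15 alternatives. STEAP1, a metalloreductase of prostate epithelium, rose from 0.496 ± 0.062 to 0.976 ± 0.047 CPM, and the efflux transporter ABCC4 from 4.43 ± 0.350 to 7.29 ± 1.03 CPM (SD, n = 3, log2 fold changes 0.97 and 0.72, adjusted p = 0.025 and 0.012). Prostatic acid phosphatase, listed as ACPP, rose from 4.09 ± 0.434 to 5.98 ± 0.510 CPM (log2 fold change 0.54, adjusted p = 0.03). The microtubule-binding MAP7 rose by 0.27 on the log2 scale (SE 0.068, adjusted p = 0.044). The 2 most abundant genes of the list did not pass the test: NDRG1, a hypoxia- and stress-responsive gene at 187 TPM, varied from 455 to 1831 CPM among the DOX-positive libraries alone (log2 fold change -0.10, SE 0.58), and TPD52 at 61.7 TPM had a log2 fold change of -0.16 (SE 0.10). ALDH1A3 had 0 counts. The count of 5 was 1 without DOX-negative replicate 2 or DOX-negative replicate 3, and leaving out DOX-positive replicate 3 gave 2. Over all tested genes these fits called 127 of 17243, 58 of 17207 and 375 of 17249, beside 829 of 17026 in the main fit. The split of 5 higher and 0 lower was 5 and 4 with DESeq2, 5 and 2 with every gene of at least 1 count tested, 4 and 2 with the replicate block and 4 and 3 without DOX-positive replicate 1. All tested genes split into 496 called higher and 333 lower in the main fit. In these alternatives, in the same order, they split into 753 and 602, 678 and 447, 574 and 424, and 615 and 420. The lower calls of the list were among RAB4A, ACSL3, BMPR1B and MAK, named after their values were seen.

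Of 18 enzymes that make or inactivate androgens, 6 were tested, 2 were called higher and 1 lower (50% of the 6, beside 4.87% of all tested genes in either direction, 2.91% higher and 1.96% lower), with a median log2 fold change of 0.003. HSD3B1 and HSD3B2, which act early in the pathway, had 0 counts. SRD5A2, a steroid 5-alpha reductase, had 6, 5 and 5 counts without DOX and 19, 12 and 26 counts with DOX. Its groups did not overlap, at low counts (log2 fold change 1.57, SE 0.39, adjusted p = 0.044, edgeR). It was called in 4 of 14 alternatives and lost the call with DESeq2, with the replicate block and whenever any 1 library was left out. SRD5A3, of the same family by name and also needed for dolichol synthesis, rose from 8.17 ± 0.164 to 12.1 ± 2.05 CPM (SD, n = 3, log2 fold change 0.57, adjusted p = 0.023). AKR1C3, which makes testosterone from androstenedione, was at 23.6, 22.4 and 22.5 CPM without DOX and 17.6, 17.2 and 18.2 CPM with DOX. It fell without overlap of the groups (-0.37, SE 0.081, adjusted p = 0.026). HSD17B6 was the most abundant enzyme at 7.15 TPM, before AKR1C3 at 5.97 TPM, and did not pass (-0.23, adjusted p = 0.16). The count of 3 was 0 without DOX-negative replicate 2 or DOX-negative replicate 3 and 1 without DOX-negative replicate 1, DOX-positive replicate 1 or DOX-positive replicate 3. In the same order, these fits called 127 of 17243, 58 of 17207, 633 of 17217, 1035 of 17191 and 375 of 17249 tested genes. The main fit called 829 of 17026.

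FKBP5 is also a gene of the glucocorticoid response, whose receptor these cells expressed. Of 19 other such genes, 18 were tested, 3 were called higher and 0 lower (16.7%, beside 4.87% of all tested genes in either direction and 2.91% higher), with a median log2 fold change of -0.018. The called genes were ANGPTL4, a lipoprotein lipase inhibitor, at 2.54 ± 0.363 against 4.52 ± 0.731 CPM, the EGFR inhibitor ERRFI1 at 47.0 ± 3.07 against 70.5 ± 9.67 CPM and the NF-kappaB inhibitor NFKBIA at 79.3 ± 1.30 against 101 ± 6.69 CPM (SD, n = 3, without and with DOX). Their log2 fold changes were 0.82, 0.58 and 0.34 (adjusted p = 0.016, 0.01 and 0.024, edgeR). The most abundant of the list, the metallothionein MT2A at 117 TPM and the mTORC1 inhibitor DDIT4 at 76.4 TPM, had log2 fold changes of -0.02 and -0.27 (adjusted p = 0.96 and 0.15). TSC22D3 (GILZ), SGK1 and PER1, classic receptor targets named here after their values were seen, had log2 fold changes of 0.13, -0.01 and -0.27 and did not pass (adjusted p = 0.46, 0.95 and 0.15). The count of 3 was 0 without DOX-negative replicate 2 or DOX-negative replicate 3. Calls over all tested genes also fell in these fits, from 829 of 17026 to 127 of 17243 and 58 of 17207. MAOA, named after its values were seen, had a log2 fold change of -0.43 and did not pass (adjusted p = 0.067, edgeR). It gave a split of 3 higher and 1 lower with DESeq2 and with every gene of at least 1 count tested. The replicate block and leaving out DOX-positive replicate 1 gave the same split.

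ERG was not the leading ETS factor of these cells. Of 27 other ETS genes, 21 were tested, 2 were called higher and 0 lower (9.52%, beside 4.87% of all tested genes in either direction and 2.91% higher), with a median log2 fold change of 0.19. ELF3, an epithelial ETS factor, stood at 55.8 TPM and ELK1 at 12.3 TPM, above the 0.649 TPM of ERG. EHF, another epithelial ETS factor, was at 10.2, 8.45 and 9.35 CPM without DOX and 14.4, 13.9 and 23.5 CPM with DOX. DOX-positive replicate 3 was the highest and the groups did not overlap (log2 fold change 0.89, SE 0.19, adjusted p = 0.027, edgeR). ETV7 rose from 7.23 ± 0.789 to 11.5 ± 1.35 CPM (SD, n = 3, log2 fold change 0.66, adjusted p = 0.013). The count of 2 was 0 without DOX-negative replicate 2 or DOX-negative replicate 3. These fits called 127 of 17243 and 58 of 17207 tested genes, beside 829 of 17026 in the main fit. FLI1, named after its values were seen, was lower in every DOX-positive library (0.882 ± 0.073 against 0.485 ± 0.091 CPM, SD, n = 3). It did not pass (log2 fold change -0.87, adjusted p = 0.052, edgeR). With every gene of at least 1 count tested, the calls were 1 higher (ETV7) and 1 lower (FLI1), without EHF. Of 16 genes known to accompany or follow ERG in prostate tumours, 14 were tested, 1 was called higher and 0 lower (7.14%, near the 4.87% of all tested genes), with a median log2 fold change of 0.093. The called gene was PLAU, urokinase plasminogen activator, at 12.5, 10.6 and 10.7 CPM without DOX and 26.6, 31.8 and 39.8 CPM with DOX. Every DOX-positive library was above every DOX-negative one and PLAU rose (log2 fold change 1.54, SE 0.14, adjusted p = 0.0008). EZH2 and CXCR4, the most abundant of that list at 22.4 and 10.5 TPM, had log2 fold changes of 0.25 and -0.24 (adjusted p = 0.066 and 0.12). Without DOX-positive replicate 2 the count was 2, beside 828 of 17258 tested genes called in that fit.

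ERG is also an endothelial gene, so markers of other cell types were read beside it. Over all tested genes 4.87% were called, 2.91% higher and 1.96% lower, and each marker set below holds few tested genes. Summed levels are given in TPM, which RN7SK and SNORD3A move within a library, so the sums do not compare the groups. Of 7 endothelial markers, 4 were tested and VWF and CDH5 were called higher (log2 fold changes 0.97 and 0.94, adjusted p = 0.018 and 0.013), while the defining marker PECAM1 had at most 6 counts in a library and CLDN5 at most 1. The other tested markers, KDR and EGFL7, had log2 fold changes of -0.74 and -0.09 (adjusted p = 0.44 and 0.73). The summed endothelial level was 5.00 to 6.64 TPM without DOX and 5.31 to 6.67 TPM with DOX, of which EGFL7 held most, at a mean of 5.29 TPM, so the sum does not describe VWF and CDH5. Stromal markers summed to 2.49 to 3.60 and 2.61 to 3.89 TPM, with LUM and COL1A1 called higher among 4 tested of 6. COL1A2, the most abundant stromal marker at 1.48 TPM, was lower in every DOX-positive library (18.1 ± 3.48 against 11.1 ± 3.77 CPM, SD, n = 3) and did not pass (log2 fold change -0.71, adjusted p = 0.2, edgeR). Leukocyte markers summed to 0.705 to 1.01 and 1.02 to 1.32 TPM, with CD68 called higher among 2 tested of 5 and CD3E at 0, and basal markers to 0.37 to 0.645 and 0.413 to 0.564 TPM, with 0 called by edgeR, also at an unadjusted p under 0.05, among 2 tested of 4. Luminal markers summed to 425 to 600 and 546 to 674 TPM, with ACPP called higher among 4 tested of 5, and of the 8 neuroendocrine markers NCAM1 and INSM1 were called lower. The part of these markers in the results for the 8 genes was not tested. In such bulk RNA, fewer cells of a kind and less RNA per cell cannot be told apart.

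Targets of TGF-beta, the other pathway that induces PMEPA1, were expressed at levels that could be tested, unlike PMEPA1 at 1 to 6 counts. Of 18 such genes, 18 were tested, 5 were called higher and 0 lower (27.8%, beside 4.87% of all tested genes in either direction and 2.91% higher), with a median log2 fold change of 0.19. This list too was written by hand with earlier results of these data known, so its share does not test enrichment. Fibronectin (FN1) was at 402, 314 and 297 CPM without DOX and 631, 770 and 905 CPM with DOX. Its groups were well apart (log2 fold change 1.19, SE 0.14, adjusted p = 0.0025, edgeR). The matrix gene THBS1 rose from 15.3 ± 1.06 to 29.1 ± 4.18 CPM and COL1A1, also a stromal marker above, from 8.16 ± 0.930 to 12.4 ± 1.45 CPM (SD, n = 3, log2 fold changes 0.92 and 0.60, adjusted p = 0.0024 and 0.019). The integrin ITGB6 and the inhibitory SMAD7 were the other called genes, with log2 fold changes of 0.56 and 0.44 (adjusted p = 0.015 and 0.047). JUNB, at 35.4 TPM the most abundant of the list before FN1 at 33.0 TPM, did not pass (log2 fold change 0.28, adjusted p = 0.16). The count of 5 was 2 without DOX-negative replicate 2 or DOX-negative replicate 3. Among all tested genes the calls were 127 of 17243 and 58 of 17207 in these fits, beside 829 of 17026 in the main fit. The split was 5 higher and 1 lower (BHLHE40) without DOX-negative replicate 1 or DOX-positive replicate 1. It was 4 higher and 1 lower (LTBP2) without DOX-positive replicate 2. Both lower genes were named after their values were seen. The lists are not exclusive: SPDEF, KLK4, KLK15, ETS2, ACPP, KRT19 and COL1A1 each stand in a second list or marker list, so ACPP and COL1A1 are each counted as called in both of theirs.

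**Figure D5:**
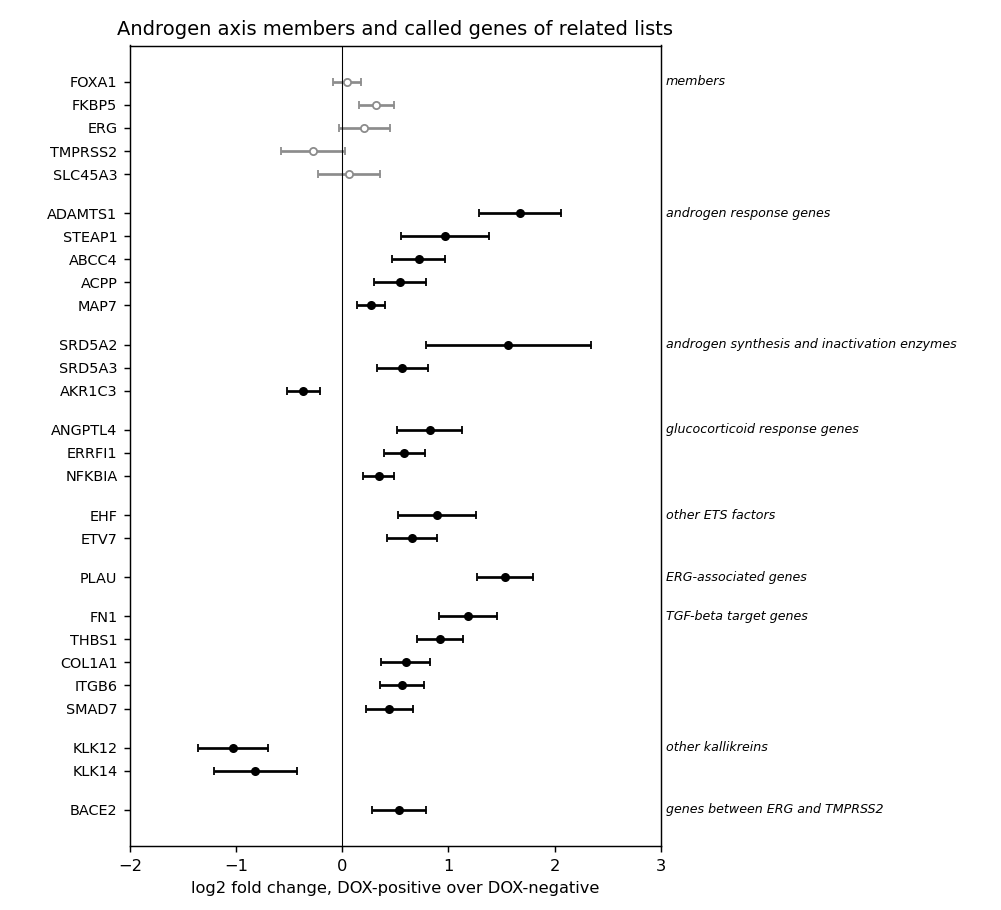
The log2 fold change (DOX-positive over DOX-negative) with 95% intervals for the 5 tested genes of the androgen axis and ERG (open grey points, 0 called) and for each called gene of the related lists (filled black points). The called genes were drawn because they passed the test; ADAMTS1, SRD5A2 and PLAU lie between 1.54 and 1.68, and KLK12, KLK14 and AKR1C3 lie below 0.

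Genes with a course like that of each gene over the 6 libraries were found by Pearson correlation of log2 CPM among 14586 candidates with at least 50 counts on average. FKBP5 ran closest to PRKAR2A and TMEM121B (r = 0.9999 and 0.999), ERG to SLC25A37 and ATP6V0A2 (0.994 and 0.987), TMPRSS2 to APOC1 and B4GALT2 (0.994 and 0.993), SLC45A3 to FAT2 and FAM214B (0.99 and 0.977) and FOXA1 to MED19 and MX1 (0.999 and 0.994). With 6 points and this many candidates close matches are common: 334 genes passed 0.95 for FKBP5 and 14 to 65 for the other 4 genes. The points share their libraries and their depth, and the values are a description with no test.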

How the data were processed

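RNA-seq was done on 6 libraries of H660 cells (3 DOX-negative, 3 DOX-positive). Per the labels, total RNA was column-purified and made into stranded mRNA libraries. The noncoding RN7SK and SNORD3A nonetheless held 45.7% to 55.7% of all TPM in a library, and the reason was not tested. The deposited tables hold, per gene symbol, raw counts and TPM; the TPM behave as those counts per gene length scaled to a common total. The submitters' processing notes name STAR, DESeq2 and GRCh38 (hg38); the counter, its strand setting, the annotation and versions were not given in the sources used here. How reads of overlapping or near-identical genes were split is therefore unknown.

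Counts were tested with edgeR 4.0.16 in R 4.3.3 (filterByExpr, TMM factors, glmQLFit with robust estimation, glmQLFTest, no covariate), with Benjamini-Hochberg adjustment over all 17026 genes tested and a threshold of 0.05 for a call. Fold changes stand for DOX-positive over DOX-negative, and intervals are 1.96 SE either side. The scripts were tested on simulated data. TPM served for levels between genes and, with limma 3.58.1 on log2(TPM + 1) and log2(TPM + 0.1), as an alternative. DESeq2 1.42.0 was another. Replicate pairs within a group differed beyond sampling noise. The chi-square per degree of freedom was 15.6 to 34.3 for DOX-negative pairs and 58.1 to 95.1 for DOX-positive pairs, while the edgeR fit shares its spread across both groups. Replicate numbers are shared between the groups, but same-numbered libraries did not deviate together (correlations -0.54, 0.018 and -0.11 over 14587 genes), so the main fit has no block.

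The 8 genes and the lists, written by hand from general knowledge, were chosen with earlier results of these data known. A few genes of the lists are not reported here and were left out of every list count, median and sum; they stayed in the fit. The text names the 8 genes, MUC1, the steroid receptors and, per list, up to 4 called genes with the largest fold change and the 2 of highest TPM, and for 5 genes the 2 most like them; other names are marked or complete a count. ACP3, GUCY1A1 and CCN2 were found as ACPP, GUCY1A3 and CTGF. Gene positions and promoter sequences are from RefSeq (GRCh38.p14).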

Additional observations from a re-analysis of the deposited data

How the results depend on the processing

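Under the 17 alternatives, fold changes of the 54 named genes kept direction and call in 765 cases, lost a call in 91, gained one in 13 and turned sign in 11, all of genes not called. ESR2 turned with library size only (-0.0024) and when a library was left out (-0.099 to 0.15), and NDRG1 (-0.70 to 0.27), MT2A (-0.17 to 0.16), SLC45A3 (-0.018 to 0.14) and FAM214B (-0.016 to 0.13) turned when a library was left out. The call of MUC1 was lost on log2(TPM + 1) with no filter (-1.22, adjusted p = 0.11) and kept when any library was left out (-1.37 to -1.22).

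With at least 1 count in total as the filter, 1 of the 8 genes (FKBP5), 1 steroid receptor or partner (GATA2) and 2 genes of the chromosome 21 interval were called. That filter called 1125 of 22564 genes in all. With upper-quartile factors, 1 of the 8 genes (FKBP5) and 813 of 17026 genes in all were called. DESeq2 called 1355 genes in all, 1 of the 8 genes (FKBP5), 9 androgen response genes (5 higher, 4 lower), 1 receptor or partner, 2 ERG-associated genes and 2 genes of the interval. The replicate block called FKBP5 (1), GATA2 (1) and 2 genes of the interval, and 998 genes in all, of which 750 were among the 829 of the unblocked fit. Whether cultures with the same number were paired was not stated in the sources used here.

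With log2(TPM + 1) and log2(TPM + 0.1) at a mean of at least 1 TPM, 31 and 35 genes were called in all, with 0 androgen response genes, 0 androgen enzymes, 0 glucocorticoid response genes, 0 other ETS factors, 0 genes of the interval, 1 TGF-beta target and 1 other kallikrein in each. With log2(TPM + 1) and no filter, 11 genes were called in all, with 1 androgen response gene, and 0 in each of the androgen enzymes, glucocorticoid response genes, ETS factors, ERG-associated genes, TGF-beta targets, other kallikreins and the interval.

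Leaving out each library in turn gave 58 to 1035 called genes, the lowest without DOX-negative replicate 3 (58), DOX-negative replicate 2 (127) and DOX-positive replicate 3 (375). Calls ranged from 0 to 1 among the 8 genes, 1 to 7 androgen response genes, 0 to 2 receptors and partners, 0 to 2 androgen enzymes, 0 to 4 glucocorticoid response genes, 0 to 3 ETS factors, 1 to 2 ERG-associated genes, 2 to 6 TGF-beta targets, 0 to 2 other kallikreins and 0 to 2 genes of the interval. The cause of these differences was not tested. Depth limits what can be said of PGR and KLK3, at 0 counts, to 0.00795 CPM over the libraries together, and KLK2 and PMEPA1 were counted but too low to test.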
